A study of Equus caballus with 21 samples.

Results

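The genes of the estrogen receptor alpha (ESR1), the progesterone receptor (PGR), a membrane protein linked to progesterone (PGRMC1) and a pair of receptor co-chaperones (FKBP4 and FKBP5) were followed through laser-captured horse endometrium. They were taken by name and are 5 of the 24942 genes in the deposited count table. Each was present in the count table and in both deposited tables of scaled values.

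ESR1 and PGR encode nuclear receptors that bind their steroid, enter or stay in the nucleus and switch genes on or off. Before the hormone arrives, the receptor is held by HSP90 together with a co-chaperone, and FKBP4 and FKBP5 compete for that place: FKBP4 favours hormone binding and FKBP5 lowers it. FKBP5 is itself a gene that progesterone and glucocorticoid receptors induce. In several mammals the uterine epithelium loses progesterone receptor during prolonged exposure to progesterone while the stroma keeps it, and the stroma then passes the signal on through growth factors.

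Biopsies were taken from healthy warmblood mares whose ovulation had been brought on with 1500 IU human chorionic gonadotropin. The pregnant group was inseminated and sampled on day 12 of pregnancy, and the cyclic group was not inseminated and was sampled on day 12 of the cycle. Luminal epithelium (the lining of the uterine cavity), glandular epithelium and stroma were captured from frozen sections, and each library began with 1 ng of RNA and a single-cell kit. There were 4 pregnant and 5 cyclic luminal libraries, 4 pregnant and 4 cyclic glandular libraries, and 2 pregnant and 2 cyclic stromal libraries. Library labels name 5 mares (B, C, J, M and U), while the description of the series counts 6. Both epithelia in both states came from mares B, C, M and U, a cyclic luminal library alone from mare J, and mare M was the single mare with stroma in both states. A captured area can hold several cell types, so fewer cells of a type and less RNA per cell cannot be told apart.

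Libraries held 136259 to 1467510 counts in total, and 4072 to 11798 genes were detected. The captured areas carried the markers of their labels in part: fibroblast markers summed to between 4112 and 10051 CPM (counts relative to the scaled library size) in stroma and to at most 1523 CPM in glandular epithelium. The gland product P19 lay between 10696 and 53275 CPM in glandular libraries and at 4426 CPM or less in luminal ones, while the other gland markers did not separate glands in this way: SPINK7 had a log2 fold change of -1.24 ± 1.30 in glandular over luminal epithelium (edgeR adjusted p = 0.797), LIF had no count in glandular libraries and was counted in cyclic luminal ones, and FOXA2, a transcription factor of glands, had no count in any library. Ciliated cell markers (3 of 4 with an ID) summed to 7.32 to 408 CPM in glandular and 260 to 1344 CPM in luminal libraries. Several libraries stood apart. The pregnant luminal library of mare M had 5102 CPM of fibroblast markers, the highest sum among the epithelial libraries. The cyclic glandular library of mare M had 14942 CPM of EPCAM and 0.293% of its counts on the 18S ribosomal RNA gene. The pregnant stromal library of mare M had 5544 CPM of P19, against 827 to 1718 CPM in the other stromal libraries, and 66.2% of its counts on the ribosomal gene. The part of these in the results was not tested.

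Levels are not compared between genes, since transcript lengths were not used. The levels of all 5 genes in each library are shown in the plot of CPM by group.

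**Figure D1:**
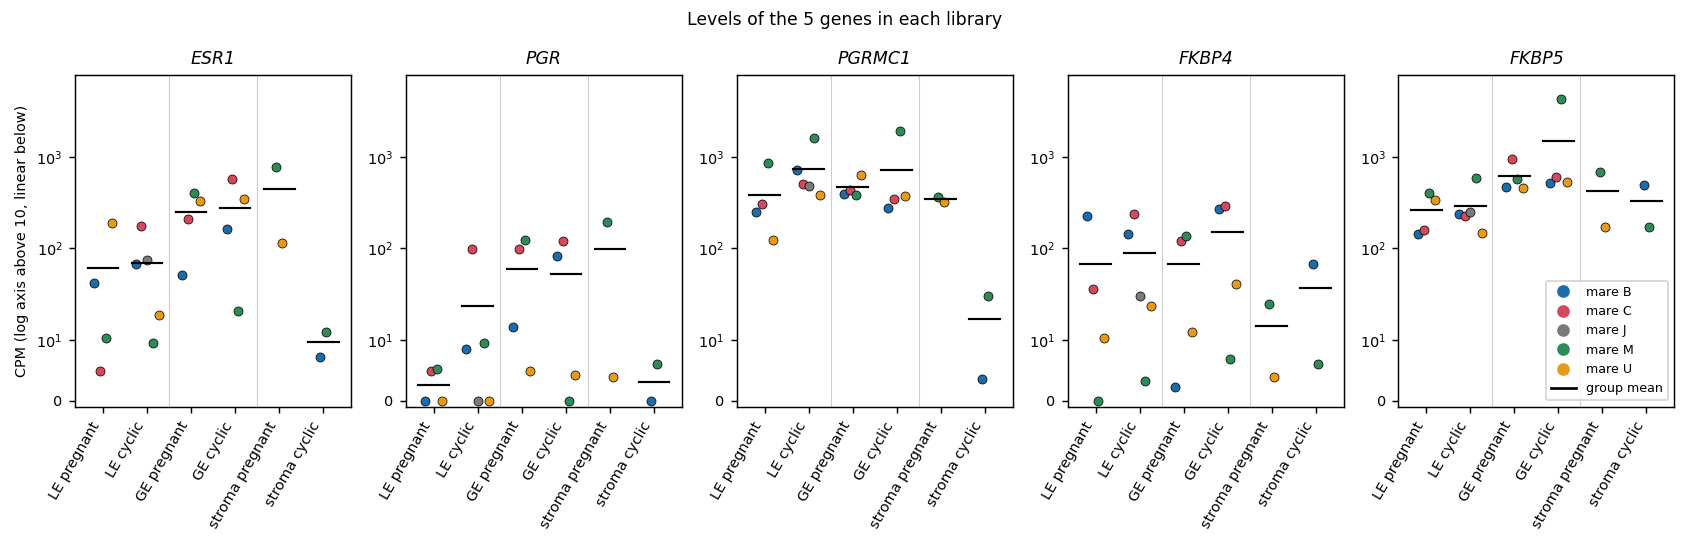
Level of each gene in every library, in CPM of the scaled library size (logarithmic above 10, linear below), with pregnant left of cyclic within each compartment; points are libraries coloured by mare and bars are group means. ESR1 in glandular epithelium lies between 20.6 and 569 CPM, and PGR is at 0 in 6 of 21 libraries.

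ESR1 transcripts were counted in all 21 libraries, with 2267 counts in total. In pregnant glandular epithelium ESR1 had 406 CPM in mare M, 329 CPM in U, 209 CPM in C and 50.7 CPM in B, and in cyclic glandular epithelium it had 569 CPM in C, 349 CPM in U, 164 CPM in B and 20.6 CPM in M. The pregnant and cyclic ranges overlap, and mare M is the highest in one state and the lowest in the other, with 3 counts in its cyclic library. In pregnant luminal epithelium ESR1 had 189 CPM in mare U, 41.6 CPM in B, 10.4 CPM in M and 4.80 CPM in C, and in cyclic luminal epithelium it had 176 CPM in C, 74.2 CPM in J, 67.6 CPM in B, 18.4 CPM in U and 9.48 CPM in M. Here too the states overlap, and mares C and U change places between them.

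In stroma ESR1 had 775 CPM in mare M and 115 CPM in mare U in pregnancy, and 12.2 CPM in M and 7.10 CPM in B in the cycle. The cyclic values rest on 2 counts each, whereas 407 and 30 counts stood behind the pregnant ones. The pregnant library of mare M was the highest of all 21. Both pregnant stromal libraries lay above both cyclic ones (exact permutation test over 6 splits, two-sided, p = 0.333, the smallest possible). Smooth muscle markers (4 of 4 counted) separated the same way, summing to 1796 CPM in U and 491 CPM in M in pregnancy and to 445 CPM in M and 217 CPM in B in the cycle, and their part in the stromal levels was not tested. Of these markers TAGLN had a fitted log2 fold change of 3.54 ± 1.90, MYH11 3.79 ± 2.27 and ACTA2 -0.10 ± 2.84 (edgeR adjusted p = 0.999 each). The sums therefore did not stand for every marker, and DES did not pass the filter. Group means were 445 ± 467 CPM in pregnant and 9.64 ± 3.59 CPM in cyclic stroma (SD, n = 2 each), 249 ± 155 CPM in pregnant and 276 ± 237 CPM in cyclic glandular epithelium (n = 4 each), and 61.4 ± 86.4 CPM in pregnant (n = 4) and 69.1 ± 66.3 CPM in cyclic luminal epithelium (n = 5). From high to low the means ran from pregnant stroma through the glandular and then the luminal groups to cyclic stroma, and neighbours in this order overlapped in their libraries.

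PGR was the scarcest in counts, with 639 in all, at least 1 count in 15 of the 21 libraries and more than 3 counts in 8. In pregnant glandular epithelium PGR had 123 CPM in mare M, 97.4 CPM in C, 13.8 CPM in B and 4.88 CPM in U, and in cyclic glandular epithelium it had 122 CPM in C, 81.9 CPM in B, 4.23 CPM in U and 0 in M. The states overlap, and mare U is low in both. In pregnant luminal epithelium PGR had 5.20 CPM in mare M, 4.80 CPM in C and 0 in B and U, which is 3 counts over the group. In cyclic luminal epithelium it had 98.5 CPM in C, 9.48 CPM in M, 8.45 CPM in B and 0 in J and U. Of the 115 cyclic luminal counts, 108 came from mare C. Summed over libraries, the ratio of the pregnant to the cyclic luminal level was 0.0571, with an exact 95% counting interval of 0.0116 to 0.171 that covers counting error only and not the spread between mares.

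Stromal PGR had 192 CPM in mare M and 3.83 CPM in mare U in pregnancy, and 6.09 CPM in M and 0 in B in the cycle. That is 101 and 1 counts in pregnancy and 1 and 0 counts in the cycle, so a single library carries the stromal PGR signal, and the groups overlap. The summed ratio of pregnant over cyclic stroma was 57.9 with a counting interval of 10.2 to 2307. A count of 0 in the cyclic stromal library of mare B, like those in the other libraries without a count, allows up to 3 counts and does not show absence. Group means of PGR were 98.1 ± 133 CPM in pregnant and 3.05 ± 4.31 CPM in cyclic stroma (SD, n = 2 each), 59.7 ± 59.1 CPM in pregnant and 52.0 ± 59.9 CPM in cyclic glandular epithelium (n = 4 each), and 2.50 ± 2.89 CPM in pregnant (n = 4) and 23.3 ± 42.3 CPM in cyclic luminal epithelium (n = 5).

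PGRMC1, a heme-binding membrane protein outside the nuclear receptor family, was counted in all 21 libraries, with 5008 counts. In pregnant luminal epithelium it had 853 CPM in mare M, 305 CPM in C, 252 CPM in B and 123 CPM in U, and in cyclic luminal epithelium it had 1602 CPM in M, 727 CPM in B, 507 CPM in C, 485 CPM in J and 382 CPM in U. Each of the 4 mares with both states was lower in pregnancy, by 0.73 to 1.60 on the log2 scale, although the ranges of the groups overlap. In pregnant glandular epithelium PGRMC1 had 642 CPM in mare U, 433 CPM in C, 399 CPM in B and 387 CPM in M, and in cyclic glandular epithelium it had 1907 CPM in M, 379 CPM in U, 348 CPM in C and 278 CPM in B. Mares B, C and U were thus slightly higher in pregnancy and mare M far lower. In stroma PGRMC1 had 368 CPM in mare M and 326 CPM in U in pregnancy, and 30.5 CPM in M and 3.55 CPM in B in the cycle, on 193 and 85 counts against 5 counts and 1 count. Group means of PGRMC1 were 383 ± 322 CPM in pregnant (n = 4) and 740 ± 498 CPM in cyclic luminal epithelium (n = 5), 465 ± 119 CPM in pregnant and 728 ± 787 CPM in cyclic glandular epithelium (n = 4 each), and 347 ± 29.7 CPM in pregnant stroma (SD, n = 2), against the 30.5 and 3.55 CPM of the cyclic stromal libraries. The stromal states did not overlap, and those of ESR1 did not either. For PGRMC1 an exact permutation test over the 6 splits gave p = 0.333, the smallest possible with 2 libraries a state. No share of all genes separating in this way is given. No other neighbouring groups in the order of group means, for any of the 5 genes, were separate.

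FKBP4, the co-chaperone that in mice is needed for progesterone action in the uterus, had 1317 counts. In pregnant glandular epithelium it had 138 CPM in mare M, 120 CPM in C, 12.2 CPM in U and 2.30 CPM in B, and in cyclic glandular epithelium it had 294 CPM in C, 269 CPM in B, 40.2 CPM in U and 6.86 CPM in M. In pregnant luminal epithelium it had 224 CPM in mare B, 36.0 CPM in C, 10.5 CPM in U and 0 in M, and in cyclic luminal epithelium it had 241 CPM in C, 144 CPM in B, 30.4 CPM in J, 23.4 CPM in U and 3.16 CPM in M. Mare B carried the highest pregnant luminal and the lowest pregnant glandular level from the same biopsy. In stroma FKBP4 had 24.8 CPM in mare M and 3.83 CPM in U in pregnancy, and 67.4 CPM in B and 6.09 CPM in M in the cycle, with overlapping states. Group means of FKBP4 were 68.2 ± 70.9 CPM in pregnant and 153 ± 150 CPM in cyclic glandular epithelium (SD, n = 4 each), 67.5 ± 105 CPM in pregnant (n = 4) and 88.3 ± 101 CPM in cyclic luminal epithelium (n = 5), and 14.3 ± 14.8 CPM in pregnant and 36.8 ± 43.4 CPM in cyclic stroma (n = 2 each). The SD was close to or above the mean in each of these groups.

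FKBP5, a target of the progesterone and glucocorticoid receptors as well as their co-chaperone, had at least 28 counts in each library and 5914 in all. In pregnant glandular epithelium it had 959 CPM in mare C, 575 CPM in M, 465 CPM in B and 454 CPM in U, and in cyclic glandular epithelium it had 4350 CPM in M, 609 CPM in C, 531 CPM in U and 524 CPM in B. The cyclic library of mare M, one of those that stood apart, lay far above the other 7 glandular libraries, which spanned only 454 to 959 CPM. In pregnant luminal epithelium FKBP5 had 406 CPM in mare M, 338 CPM in U, 158 CPM in C and 143 CPM in B, and in cyclic luminal epithelium it had 584 CPM in M, 247 CPM in J, 241 CPM in B, 228 CPM in C and 147 CPM in U. In stroma it had 682 CPM in mare M and 172 CPM in U in pregnancy, and 490 CPM in B and 171 CPM in M in the cycle. All states overlapped within their compartment. Group means of FKBP5 were 613 ± 237 CPM in pregnant and 1503 ± 1898 CPM in cyclic glandular epithelium (SD, n = 4 each), 261 ± 131 CPM in pregnant (n = 4) and 290 ± 170 CPM in cyclic luminal epithelium (n = 5), and 427 ± 360 CPM in pregnant and 330 ± 226 CPM in cyclic stroma (n = 2 each).

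Glandular and luminal epithelium of the same mares were compared first, over both states. ESR1 and FKBP5 were higher in glandular epithelium and passed the threshold; PGR, FKBP4 and PGRMC1 did not pass. For this comparison counts were summed per mare and epithelium (mares B, C, M and U) and tested with edgeR's quasi-likelihood F-test, two-sided, with the mare as a block and Benjamini-Hochberg adjustment over all genes tested. Of 7174 genes tested, 6.94% were called at an adjusted p under 0.05 and 3.65% were called as higher in glandular epithelium. Of the 5 genes 2 were called, both higher, beside that 3.65%. Markers of other cells moved in the same comparison: the ciliated markers FOXJ1 (-4.18 ± 0.67, edgeR adjusted p = 5.44e-08) and DNAH5 (-3.89 ± 0.76, 2.09e-05) and the fibroblast collagen COL1A1 (-2.87 ± 0.52, 3.01e-06) were lower in glandular epithelium, 1 of the 7 tested fibroblast markers and 2 of the 2 tested ciliated ones. Without a call, DCN (1.09 ± 1.15) and PDGFRA (0.52 ± 1.86) ran against COL1A1, while VIM, COL1A2, LUM and PDGFRB had its direction. Epithelial markers were called on both sides, EPCAM at 1.67 ± 0.385 (edgeR adjusted p = 0.000591) and CLDN4 at -3.76 ± 0.76 (3.92e-05). Summed fibroblast markers were at 314 to 1523 CPM in glandular and 618 to 5102 CPM in luminal libraries. The part of fibroblasts and ciliated cells in the calls was not tested.

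ESR1 was higher in glandular than in luminal epithelium in 8 of 8 biopsies, by between 0.26 and 4.85 on the log2 scale. In the cyclic biopsy of mare M both epithelia had 3 counts of ESR1. Its 20.6 against 9.48 CPM thus came from library scaling alone and gives no direction. The fitted log2 fold change of glandular over luminal was 2.19 ± 0.68 (SE, n = 4 mares, edgeR adjusted p = 0.0224), or 1.95 above the median of all genes tested. The call ended when any 1 of the 4 mares was left out (log2 fold change 1.55 without M to 2.60 without B, adjusted p between 0.0627 and 0.120), and also without the filter on low counts (2.20, adjusted p = 0.0743), without the block (1.98, 0.0648) and on single libraries with the biopsy as block (2.29, 0.125), while its direction held in each of these. FKBP5 was likewise higher in glandular epithelium in 8 of 8 biopsies, by between 0.42 and 2.89. Its fitted log2 fold change was 1.49 ± 0.44 (n = 4 mares, edgeR adjusted p = 0.0143), or 1.25 above the median of all genes. Without mare M, whose cyclic glandular library held 4350 CPM, the FKBP5 call held (adjusted p = 0.0213), but it ended without mare B (adjusted p = 0.112) or mare C (adjusted p = 0.205), without the block (0.0631) and on single libraries with the biopsy as block (0.0807).

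**Figure D2:**
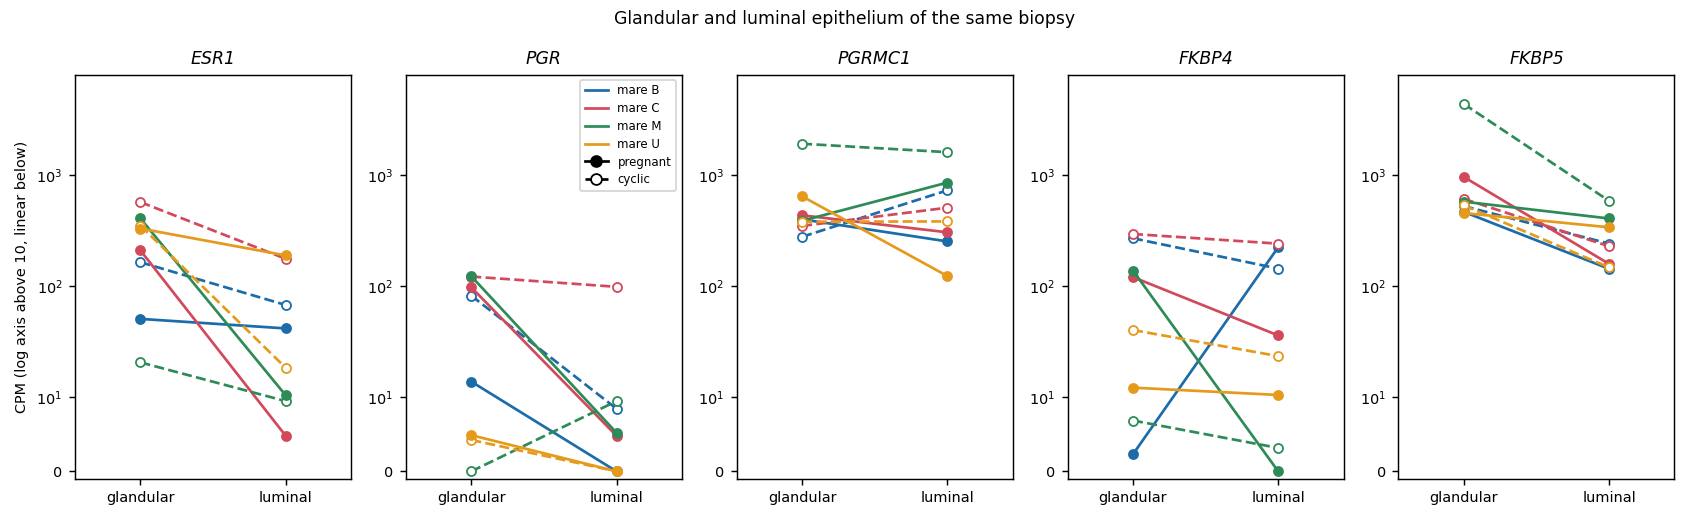
Glandular (left) and luminal (right) level of each gene in the 8 biopsies that gave both, in CPM (logarithmic above 10, linear below); lines join compartments of 1 biopsy, coloured by mare, with solid lines for pregnant and dashed lines for cyclic biopsies. ESR1 and FKBP5 fall toward luminal epithelium in 8 of 8 lines, PGR and FKBP4 in 7 and PGRMC1 in 4. Some lines of ESR1, PGR and FKBP4 join values of 3 counts or fewer.

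PGR was higher in glandular epithelium in 7 of 8 biopsies, the exception being the cyclic biopsy of mare M with 0 against 9.48 CPM. That exception was 0 against 3 counts, and both biopsies of mare U had 2 against 0 counts. These pairs lie within the floor of 3 counts and do not show a direction. Its log2 fold change of 2.90 ± 1.49 missed the threshold (n = 4 mares, edgeR adjusted p = 0.337) and passed it with DESeq2 (2.82, adjusted p = 0.0476). FKBP4 was higher in 7 of 8 biopsies with a log2 fold change of 1.04 ± 0.86 (edgeR adjusted p = 0.684), 0.22 without mare M and 1.61 without C; the pregnant biopsy of mare B ran the other way with 2.30 CPM in glandular and 224 CPM in luminal epithelium. The FKBP4 tally includes the cyclic biopsy of mare M with 1 count in each epithelium and the pregnant biopsy of mare U with 5 against 4 counts. PGRMC1 was higher in 4 and lower in 4 biopsies, with a log2 fold change of -0.25 ± 0.44 (edgeR adjusted p = 0.92). A p that misses the threshold does not show that values did not differ, here or below.

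Pregnant and cyclic luminal epithelium were compared next, which asks whether the lining changes its steroid receptors when a conceptus is present on day 12. None of the tested members passed. Of 4344 genes tested 0.437% were called, and 0 of the 4 tested members were (edgeR, and 0 of 4 with DESeq2). At an unadjusted p under 0.05 edgeR had 0 of the 4, beside 339 of all 4344 genes. PGR did not pass the filter on low counts. PGRMC1 had the largest estimate, a log2 fold change of -0.93 ± 0.68 (n = 4 pregnant and 5 cyclic libraries, edgeR adjusted p = 0.877). It was negative in each alternative fit and lay between -1.71 (pregnant library of mare M left out) and -0.44 (cyclic library of mare M left out). ESR1 had -0.19 ± 1.48 (edgeR adjusted p = 0.993), FKBP4 -0.33 ± 1.40 (0.990) and FKBP5 -0.14 ± 0.81 (0.993). For PGR the fit without the filter gave -3.19 ± 2.45 (edgeR adjusted p = 0.501), on the 3 pregnant and 115 cyclic counts described above.

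In glandular epithelium pregnancy was likewise without a call among the 5 genes, all of which were tested. Of 4816 genes 0.0623% were called, and 0 of the 5 members were (edgeR). At an unadjusted p under 0.05 edgeR had 0 of the 5, beside 350 of all 4816 genes. With DESeq2 0 of 3 were called, and it gave no adjusted p for PGRMC1 and FKBP5. FKBP5 had a log2 fold change of -1.23 ± 0.75 (n = 4 libraries each, edgeR adjusted p = 0.844); leaving out the cyclic library of mare M turned it to 0.15. PGRMC1 had -0.57 ± 0.76 (adjusted p = 0.999) and 0.49 without the same library. FKBP4 had -1.14 ± 1.15, ESR1 -0.13 ± 0.89 and PGR 0.20 ± 1.39, each with an edgeR adjusted p of 0.999.

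Stroma had the fewest libraries. Of 2212 genes tested 0% were called, and 0 of the 3 tested members were (edgeR). DESeq2 also called 0 genes. At an unadjusted p under 0.05 edgeR had 88 of the 2212 genes, with ESR1 as 1 of the 3 tested members. PGR and FKBP4 did not pass the filter. ESR1 had a log2 fold change of 5.63 ± 2.50 in pregnant over cyclic stroma (n = 2 libraries each, edgeR adjusted p = 0.999). PGRMC1 had 4.52 ± 2.70 (adjusted p = 0.999) and FKBP5 0.41 ± 1.60 (adjusted p = 0.999). Without the pregnant library of mare M, which stood apart, ESR1 was at 3.50 ± 5.72 (adjusted p = 0.958) and PGRMC1 at 4.28 ± 5.47 (adjusted p = 0.952), with the lone pregnant library assumed to vary as the cyclic ones do. With 1 stromal library left out ESR1 ran from 3.50 to 6.43 and PGRMC1 from 3.64 (without cyclic B) to 6.44 (without cyclic M).

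**Figure D3:**
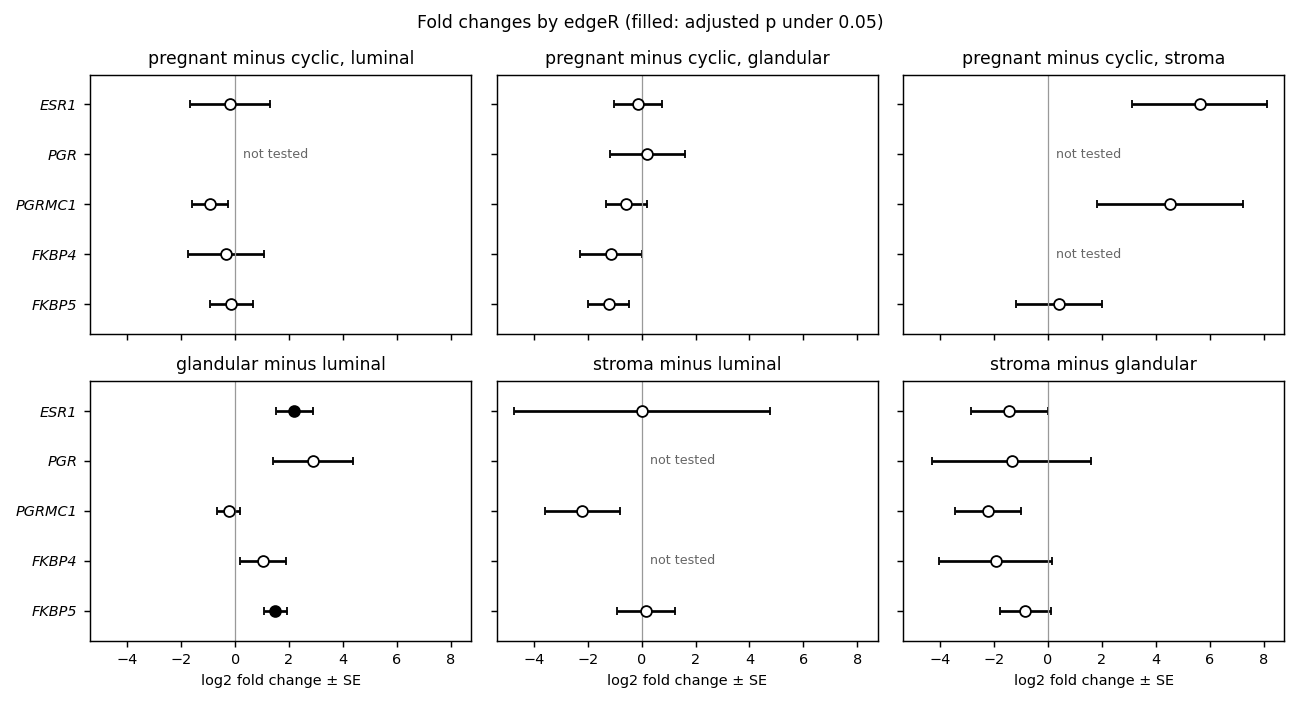
Fitted log2 fold change ± SE of each gene in the pregnancy effects (upper panels) and the compartment comparisons (lower panels); filled points passed an adjusted p of 0.05, and genes that did not pass the filter are marked as not tested. ESR1 at 2.19 and FKBP5 at 1.49 in glandular over luminal epithelium are the 2 calls.

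The pregnancy effects of the epithelia were set against each other directly, with the biopsy as a block (16 libraries). Of 6884 genes 0.0145% were called, and 0 of the 5 members were (edgeR, and 0 of 5 with DESeq2). At an unadjusted p under 0.05 edgeR had 0 of the 5, beside 381 of all 6884 genes. The difference, glandular minus luminal, was 3.46 ± 3.17 for PGR (edgeR adjusted p = 0.911), 1.04 ± 1.14 for PGRMC1 (0.920), 0.74 ± 1.85 for ESR1 (0.972), 0.19 ± 2.25 for FKBP4 (0.996) and -0.49 ± 1.10 for FKBP5 (0.966), beside a median of 1.28 over all genes tested. No member therefore had a pregnancy effect shown to differ between the epithelia.

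Stroma was compared with each epithelium in the biopsies that gave both (B cyclic, M cyclic, M pregnant and U pregnant). No member passed. Against luminal epithelium 1.74% of 3512 genes were called and 0 of the 3 tested members (edgeR, and 0 of 3 with DESeq2). At an unadjusted p under 0.05 edgeR had 0 of the 3, beside 362 of all 3512 genes. PGRMC1 was lower in stroma in 3 of 4 biopsies, with a log2 fold change of -2.19 ± 1.39 (n = 3 mares, edgeR adjusted p = 0.698), while FKBP5 had 0.16 ± 1.07 (0.984) and ESR1 0.018 ± 4.76 (1.00). PGRMC1 was at -0.34 without mare B (adjusted p = 1.00), at -4.28 without U (0.0721) and at -4.46 without the pregnant biopsy of mare M (0.303), a setting chosen after seeing the data, and ESR1 was at -1.10 (0.917) and FKBP5 at -0.52 (0.934) without that biopsy. Against glandular epithelium 1.3% of 4830 genes were called and 0 of the 5 members (edgeR, and 0 of 5 with DESeq2). At an unadjusted p under 0.05 edgeR had 0 of the 5, beside 480 of all 4830 genes. PGRMC1 and FKBP4 were lower in stroma in 4 of 4 biopsies, with -2.23 ± 1.22 (edgeR adjusted p = 0.541) and -1.94 ± 2.10 (0.871). Some of these pairs were close to ties. FKBP4 had 1 count in each compartment of cyclic M, and 1 in stroma against 5 in glands of pregnant U. PGRMC1 had 368 against 387 CPM in pregnant M. ESR1 had -1.44 ± 1.44 (0.855), PGR -1.35 ± 2.96 (0.922) and FKBP5 -0.84 ± 0.96 (0.875), each read beside a median of -1.07 over all genes tested. With a mare left out ESR1 ran from -2.82 (without M) to -0.070 (without B) and PGRMC1 from -3.23 (without U) to -0.91 (without B). Without the pregnant biopsy of mare M these were -1.91 and -4.15, and FKBP5 was at -1.68; PGR and FKBP4 then did not pass the filter. ESR1 was above its glandular partner in the pregnant biopsy of mare M (775 against 406 CPM) and below it in the other biopsies. In the cyclic biopsy of mare M this was 2 counts in stroma against 3 in glands.

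The balance of the co-chaperones was read within libraries, as the share of FKBP5 in the counts of FKBP4 and FKBP5 together, which does not depend on the scaling between libraries. In pregnant luminal epithelium this share was 100% in mare M (78 counts, exact 95% interval from 95.4%), 97.0% in U, 81.5% in C and 39.0% in B, and in cyclic luminal epithelium it was 99.5% in M, 89.0% in J, 86.3% in U, 62.6% in B and 48.6% in C. In pregnant glandular epithelium it was 99.5% in mare B, 97.4% in U, 88.8% in C and 80.6% in M, and in cyclic glandular epithelium it was 99.8% in M, 93.0% in U, 67.4% in C and 66.1% in B. FKBP5 thus held most of these counts in 19 of 21 libraries, the exceptions being pregnant luminal B (exact 95% interval 30.9% to 47.6%) and cyclic luminal C (44.2% to 53.1%).

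The share averaged 79.4% ± 28.1 in pregnant and 77.2% ± 20.9 in cyclic luminal epithelium (SD, n = 4 and 5), a difference of 2.16 percentage points (exact permutation test over 126 splits, two-sided, p = 0.905, adjusted over 2 comparisons 0.905). It averaged 91.6% ± 8.63 in pregnant and 81.6% ± 17.4 in cyclic glandular epithelium (n = 4 each), a difference of 10.0 points (exact permutation test over 70 splits, p = 0.343, adjusted 0.686). Stromal shares were 97.8% in U and 96.5% in M in pregnancy, and 96.6% in M and 87.9% in B in the cycle. The counts were not corrected for transcript length, so this is a share of reads and not of molecules.

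**Figure D4:**
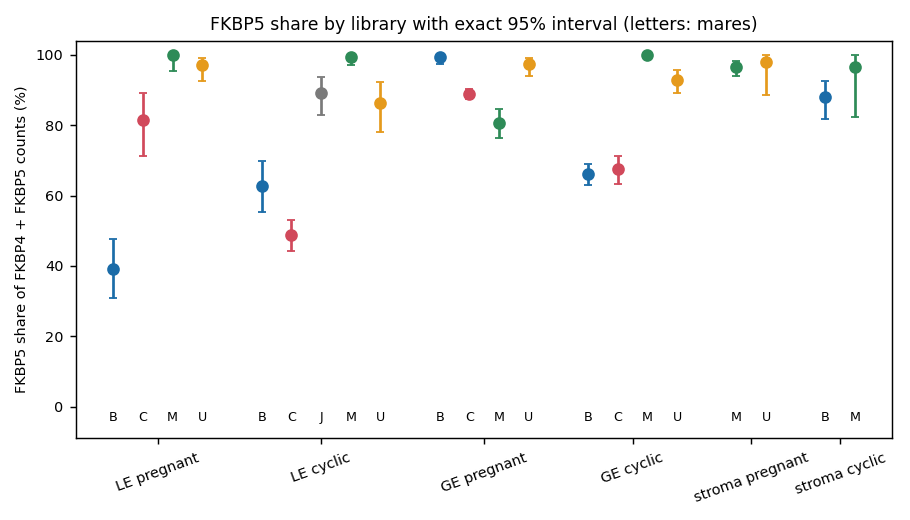
Share of FKBP5 in the summed counts of FKBP4 and FKBP5 (percent) in each library, with its exact 95% binomial interval and the mare's letter, pregnant left of cyclic in each compartment. All libraries lie above 60% except pregnant luminal B at 39.0% and cyclic luminal C at 48.6%.

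Depth moved with several of these levels. In the 7 libraries of at least 600000 counts, a limit chosen after the values were seen, PGR had 0 to 192 CPM with a median of 98.5 CPM, against 0 to 13.8 CPM with a median of 4.52 CPM in the other 14. In total 6 of the deep libraries had more than 3 counts of PGR, and the cyclic luminal library of mare U had none. Total counts include ribosomal RNA. Without its genes pregnant stromal M held 386671 counts, pregnant glandular M 388726, cyclic glandular C 414414 and cyclic luminal U 420635, all under 600000. The first 3 of these had 192, 123 and 122 CPM of PGR, so on such totals the limit does not part the PGR levels. The other deep libraries stayed above that limit. FKBP4 had a median of 138 CPM in the deep libraries and 11.3 CPM in the rest, and ESR1 209 CPM and 46.1 CPM. FKBP5 (575 and 372 CPM) and PGRMC1 (382 and 389 CPM) differed less in their medians. Across the 21 libraries Pearson's r of log2 CPM with log2 total count was 0.72 for PGR, 0.65 for FKBP4, 0.63 for ESR1, 0.20 for PGRMC1 and 0.11 for FKBP5. These correlations are descriptions over libraries that share mares and mix compartments, and the part of depth in the comparisons was not tested.

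**Figure D5:**
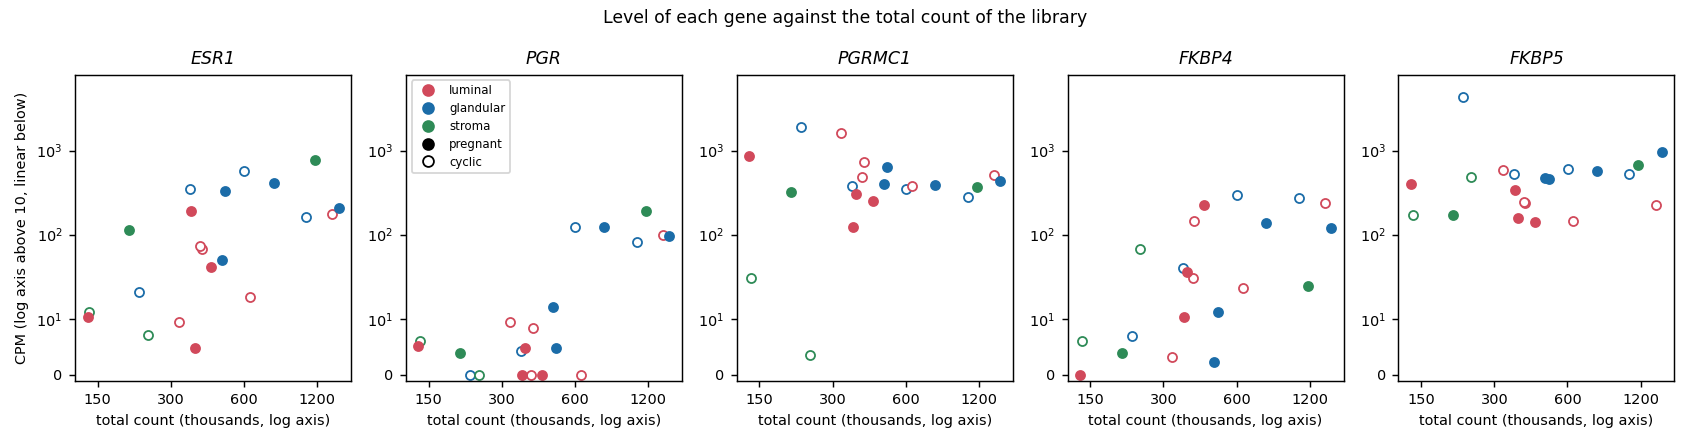
Level of each gene in CPM (logarithmic above 10, linear below) against the total count of the library, ribosomal RNA included (logarithmic), coloured by compartment, with filled points for pregnant and open points for cyclic libraries. At 600000 counts or more PGR reaches 192 CPM, and below it stays at or under 13.8 CPM. On totals without ribosomal RNA this split does not hold.

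Among the members, ESR1 and PGR ran most alike over the 21 libraries (Pearson's r 0.63, Spearman's rho 0.50), and FKBP4 and FKBP5 hardly at all (r -0.078, rho 0.045). In the search over 3310 well-covered genes, the genes most like ESR1 were ZNF318 (r 0.86), PDXK (0.82) and PDIA4 (0.80). SASH1 (0.90), NFIA (0.81) and ME2 (0.76) ran most like PGR, and SETDB1 (0.83), the gene with ID 102149975 (0.80) and ARPIN (0.79) most like FKBP4. Most like FKBP5 were DYNC1I1 (0.82), EPSTI1 (0.78) and SEC62 (0.78). SMS (0.82), SEC63 (0.81) and SUCO (0.80) stood nearest to PGRMC1, though their rank correlations of 0.31 to 0.52 were lower. The libraries share mares and differ in depth, so these values describe likeness in these libraries alone.

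Other genes of steroid action were counted from lists, 86 of whose 91 genes had an ID. The lists were chosen with earlier results of these data known, and P19 also served above as a gland marker. Here and below, their counts therefore describe the listed genes and do not test for an excess of calls. Between glandular and luminal epithelium, genes known to respond to progesterone or glucocorticoid gave 7 calls of 12 tested beside 6.94% of all genes tested, 4 higher and 3 lower in glandular epithelium, with a median log2 fold change of 0.40 beside 0.25 over all genes. Higher were IHH, an epithelial signal to the stroma (6.01 ± 1.23, edgeR adjusted p = 6.26e-05), SCGB1A1, the secreted uteroglobin (4.16 ± 0.54, 2.96e-12), P19, the progesterone-dependent lipocalin of horse glands (3.74 ± 0.33, 2.74e-26), and TSC22D3, a glucocorticoid-induced leucine zipper protein (3.60 ± 0.82, 0.000475). Lower were SERPINA14, a uterine serpin (-5.35 ± 0.68, 1.29e-12), ERRFI1, an inhibitor of EGF receptor signalling (-2.36 ± 0.61, 0.00303), and FOXO1, a transcription factor of decidualizing and epithelial cells (-1.99 ± 0.58, 0.0127). Receptor-responsive genes therefore lay on both sides. The calls of SCGB1A1, P19, TSC22D3 and SERPINA14 held in each alternative run, whereas those of ERRFI1 and FOXO1 ended when mare B, M or U was left out and that of IHH ended without mare U (4.98, adjusted p = 0.0538). FOXO1 also missed the threshold without the filter on low counts (adjusted p = 0.0503).

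Genes known to respond to estrogen gave 3 calls of 4 tested between the epithelia, again beside 6.94% of all genes, with a median of -1.44. XBP1, a transcription factor of the secretory pathway, was higher in glandular epithelium (2.18 ± 0.65, edgeR adjusted p = 0.0159), and MUC1, a cell-surface mucin (-5.06 ± 1.25, 0.00179), and WFDC2, a secreted protein with a protease-inhibitor fold (-5.72 ± 1.28, 0.000342), were lower. The call of WFDC2 held in each alternative run, that of XBP1 ended without mare B (2.23, adjusted p = 0.242) or M (1.53, 0.119), without the filter (0.0618), without the block (0.102) and on single libraries with the biopsy as block (0.184), and that of MUC1 without B (-4.44, 0.113) or C (-5.47, 0.0781). Of 12 coregulators 1 was called, near that share of all genes: PHB2, a repressor of estrogen receptor activity (3.98 ± 1.12, 0.00888), with a median of -0.27, and of 2 steroid-metabolizing genes 1, HSD17B11, of the hydroxysteroid dehydrogenase family (2.81 ± 0.83, 0.0146), with a median of 1.79. Both of these calls ended without mare B (adjusted p = 0.0813 and 0.193) and without M (0.0947 and 0.0901) or U (0.0937 and 0.0554), and on single libraries with the biopsy as block (0.216 and 0.0807), the first value of each pair being that of PHB2. Neither the 4 other steroid receptors and membrane components (median -0.30) nor the 13 chaperones (median -0.38) gave a call.

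In pregnancy these lists gave 1 call. In luminal epithelium FGF9, a growth factor from the list of paracrine factors, rose by a log2 fold change of 3.90 ± 0.95 (edgeR adjusted p = 0.0214) and was the single tested gene of its list. That call ended with the mare as a block (3.52, adjusted p = 0.537), without the filter (3.94, 0.0645), in the joint fit of all libraries (3.93, 0.260), with limma on the deposited signal (3.49, 0.583 in 21 libraries and 5.15, 0.445 in 19), and without the pregnant library of mare B (3.90, 0.0937) or C (3.37, 0.267) or the cyclic library of J (3.63, 0.0646), M (3.62, 0.126) or U (3.64, 0.0790). In luminal epithelium the other lists gave 0 calls (edgeR, with 5 genes at an unadjusted p under 0.05, beside 339 of all 4344 tested). They held 2 tested receptors and membrane components (median log2 fold change 1.28), 9 chaperones (1.04), 10 coregulators (0.44), 10 genes responsive to progesterone or glucocorticoid (0.56), 3 responsive to estrogen (0.48) and 2 of steroid metabolism (0.59), beside a median of -0.039 over all genes. With the smallest p of their lists, SERPINA14 had 2.31 ± 0.73 (edgeR adjusted p = 0.146) and P19 -1.44 ± 0.55 (0.339) in pregnant over cyclic luminal epithelium, and among the chaperones HSPA8, the constitutive HSP70, had 1.58 ± 0.57 (0.303) and HSP90AA1, an HSP90 isoform, 1.04 ± 0.55 (0.662). The PGRMC1 relatives NENF and PGRMC2 had 1.73 ± 0.96 (0.697) and 0.83 ± 1.39 (0.973). The coregulator NRIP1 had -1.42 ± 0.82 (0.728), HSD17B11 and HSD17B4 had 2.26 ± 1.58 (0.850) and -1.07 ± 1.10 (0.960), and XBP1 and MUC1 had -0.97 ± 1.34 and 0.75 ± 1.04 (0.973 each).

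In glandular epithelium the lists gave 0 calls in pregnancy (edgeR). They held 3 tested receptors and membrane components (median -2.03), 11 chaperones (0.66), 11 coregulators (0.47), 8 genes responsive to progesterone or glucocorticoid (0.53), 2 responsive to estrogen (-0.031) and 2 of steroid metabolism (-0.68), beside 0.074 over all genes. Of all 4816 genes tested, 350 had an unadjusted p under 0.05. At that level there were 1 gene each among the receptors (NENF, -3.20 ± 1.09, adjusted p = 0.341), the chaperones (HSPA4, -2.10 ± 0.91, 0.503), the responsive genes (SCGB1A1, -1.84 ± 0.77, 0.455) and the steroid-metabolizing genes (HSD17B11, -2.31 ± 0.91, 0.407). NENF stood at 0.57 without the cyclic library of mare M. The second gene of each of these lists was PGRMC2 (-2.03 ± 1.52, adjusted p = 0.983), the HSP90 co-chaperone CDC37 (2.73 ± 1.63, 0.828), IHH (1.85 ± 1.08, 0.825) and HSD17B4 (0.94 ± 1.08, 0.999). The coactivators NCOA2 (-0.69 ± 0.89) and CREBBP (0.77 ± 1.04) and the estrogen-responsive XBP1 (0.48 ± 0.87) and GREB1 (-0.54 ± 1.41) had an adjusted p of 0.999 each. In stroma 0 of the 25 tested list genes other than the members were called (edgeR, 0 also at an unadjusted p under 0.05, beside 88 of all 2212). For the difference of the epithelial pregnancy effects 0 of 48 tested list genes were called (edgeR). At an unadjusted p under 0.05 there were 6 of the 48, beside 381 of all 6884 genes.

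Between stroma and the epithelia there were 2 calls, 1 of 28 tested list genes against luminal epithelium (1.74% of all genes) and 1 of 36 against glandular epithelium (1.3% of all genes). ERRFI1 was lower in stroma than in luminal epithelium (-6.40 ± 1.47, edgeR adjusted p = 0.00218; -5.90 and 0.0502 without mare B, -5.95 and 0.510 without U). P19 was lower in stroma than in glandular epithelium (-3.85 ± 0.94, adjusted p = 0.0115; -3.28 and 1.00 without mare B, -4.92 and 0.0609 without M, -4.02 and 0.0522 without the pregnant biopsy of mare M alone).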

How the data were processed

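Per the submitters' processing notes, Trimmomatic 0.32.2 trimmed and HISAT2 2.0.3 aligned the reads of the 21 libraries. Counting tool, genome build and gene annotation: not given in the sources used here. Reads were single-end, 125 bases, from 2 lanes of 1 flow cell, and some libraries, not named, had an extra amplification, per the labels' protocols. The authors deposited raw counts for 24942 gene IDs and 2 tables of signal named CPM (10307 genes in 21 libraries and 10410 genes in 19), which equal the deposited counts divided by a constant of each library and served as alternatives. The signal of 19 libraries lacks the cyclic glandular and the pregnant luminal library of mare M, both among those that stood apart. Symbols came from a RefSeq gene table by gene ID (21420 IDs, 85.9%). How reads shared by similar or overlapping genes were counted, and whether by strand, is not given.

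Levels are CPM with TMM scaling over all libraries. Tests ran in R 4.3.3 with edgeR 4.0.16 quasi-likelihood F-tests (filterByExpr, minimum count 10, minimum total 15), Benjamini-Hochberg adjustment over all genes tested and a threshold of 0.05, both directions. Each SE was taken as the size of the estimate over the root of its F, so it uses spread shared between genes and is unreliable near 0. Pregnancy was tested within a compartment without a block, the difference of epithelial effects with the biopsy as block, and compartments on counts summed per mare with the mare as block. Deeper libraries weigh more in such sums. The same letter marks the same mare, so mares pair the states; deviations from group means correlated between states with r of -0.035 to 0.063. The floor of 3 counts and the intervals hold counting error only, because the kit's amplified reads carry no molecular identifiers and are not separate molecules. The name of a deposited signal table speaks of removed duplicates; whether they were removed before counting is not stated, so a count may be of all reads or of unique ones. Alternatives were other scaling (RLE), no filter, no ribosomal RNA genes, DESeq2 1.42.0, blocks, a joint fit, limma 3.58.1 on log2 of the deposited signal plus 1, and each library or mare left out. Scripts were tested on simulated data.

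The 5 genes and the lists were chosen with earlier results of these data known. Named were the 5 genes, every list gene past the threshold and, of the rest, the 2 genes per list with the smallest p for pregnancy in an epithelium; 1 of these is not reported here. Lists covered other steroid receptors and membrane components, chaperones, coregulators, genes responding to progesterone or glucocorticoid, genes responding to estrogen, steroid metabolism and paracrine factors. Likeness was Pearson's r of log2 CPM over 21 libraries, among genes with a mean of at least 50 CPM and a count in at least 15 libraries.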

Additional observations from a re-analysis of the deposited data

Results flagged for a closer look

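Levels of the 5 genes and the FKBP5 share were examined in each luminal and glandular group of 4 or 5 libraries for a library far from the rest of its group by Dixon's 95% criterion. Of the 24 groups examined 6 held such a library. The criterion's rate of about 1 in 20 holds for independent, normally distributed values. Levels were taken as CPM without logs and the genes share libraries, so that rate gives no expected number here. Among them, 4 of the 6 were cyclic libraries of mare M.

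PGRMC1 stood at 1907 CPM in cyclic glandular epithelium of mare M (next highest 379 CPM) and at 1602 CPM in cyclic luminal epithelium of the same biopsy (next 727 CPM). FKBP5 stood at 4350 CPM in the same glandular library (next 609 CPM) and at 584 CPM in the same luminal library (next 247 CPM). That glandular library also had 14942 CPM of EPCAM and 0.293% of its counts on the 18S ribosomal RNA gene, whose part in these levels was not tested.

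PGR stood at 98.5 CPM in cyclic luminal epithelium of mare C (next 9.48 CPM), the deepest luminal library at 1382614 counts. FKBP4 stood at 224 CPM in pregnant luminal epithelium of mare B (next 36.0 CPM), on 86 counts.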

How the results depend on the processing

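Values are log2 fold changes or differences, or numbers of genes called. Depth limits the genes with few counts: PGR had over 3 counts in 8 of 21 libraries. No stromal pregnancy fit with the mare as replicate block was possible, because mare M alone gave both states. Across the alternatives other than leaving out a library, biopsy or mare, member results kept direction and call 176 times, changed direction 11 times, lost the call 5 times and gained it 1 time; with 1 left out these were 117, 31, 6 and 0. Results that changed direction were not called in the fits reported above. The causes were not tested. RLE scaling shifted the median of all genes by 0.15 (luminal pregnancy), -0.13 (glandular pregnancy), -0.24 (stromal pregnancy), -0.29 (difference of effects), and 0.28 (stroma over glandular).

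In glandular over luminal epithelium, the calls ended for ESR1 with no filter (2.20), no replicate block (1.98) and libraries with the biopsy as block (2.29), and for FKBP5 with no replicate block (1.47) and the biopsy block (1.51). With a mare left out, ESR1 ran from 1.55 to 2.60, FKBP5 from 1.32 to 1.61 and PGRMC1 from -0.59 to 0.037. PGR passed with DESeq2 (2.82).

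Pregnancy in luminal epithelium turned for FKBP5 with RLE (0.090) and DESeq2 (0.088), and for FKBP4 with limma on 19 libraries (0.16). With the mare as replicate block no member gained or lost a call. Leaving out a library gave ESR1 -1.77 to 0.51, FKBP4 -2.51 to 0.48, FKBP5 -0.45 to 0.27 and HSD17B4 -1.62 to 0.044. In glandular epithelium limma on 21 libraries gave ESR1 0.26, and limma on 19 libraries PGR -0.21, PGRMC1 0.47, FKBP5 0.094, NENF 0.44, NCOA2 0.016 and IHH -0.14. Leaving out a library gave ESR1 -0.55 to 0.50, PGR -0.52 to 1.06, PGRMC1 -0.76 to 0.49, FKBP5 -1.41 to 0.15, NENF -3.49 to 0.57, NCOA2 -1.17 to 0.12 and GREB1 -1.54 to 0.20; in stroma it gave FKBP5 -1.03 to 1.56. The difference of effects for FKBP4 was -0.088 with RLE, -0.087 with DESeq2 and -0.60 with no replicate block; with a mare left out ESR1 ran from -0.60 to 2.45, FKBP4 from -1.42 to 1.65 and FKBP5 from -1.06 to 0.066.

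Stroma over luminal turned for FKBP5 with the biopsy as block (-0.23) and, in a setting chosen after seeing the data, without the pregnant biopsy of mare M (ESR1 -1.10, FKBP5 -0.52). With a mare left out ESR1 ran from -1.90 to 2.57 and FKBP5 from -0.35 to 0.66, and over glandular PGR from -2.22 to 0.46. The FKBP5 share in luminal epithelium differed by -4.98 to 15.6 points with a library left out.

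Genes called in luminal pregnancy (19) numbered 12 with no filter, 83 with DESeq2, 8 with the mare as replicate block, 1 in the joint fit, 0 with limma on 21 and on 19 libraries, and 2 to 37 with a library left out. In glandular pregnancy (3) they numbered 0 with RLE, DESeq2, the replicate block and limma on 21 and on 19 libraries, 34 with no filter, 7 in the joint fit, and 0 to 28 with a library left out. In stromal pregnancy (0) there were 2 with no filter, 3 in the joint fit and 0 to 2 with a library left out. For the difference of effects (1) there were 0 without ribosomal genes, 78 with DESeq2 and 8 with no replicate block. Glandular over luminal (498) gave 1009 with DESeq2, 247 with the biopsy block and 230 to 411 with a mare left out. Stroma over luminal (61) gave 29 with no filter, 474 with DESeq2, 34 with the biopsy block and 18 to 36 with a mare left out. Stroma over glandular (63) gave 20 with no filter, 526 with DESeq2, 99 with no replicate block, 9 without the pregnant biopsy of mare M, and 0 to 45 with a mare left out.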
